A study of Oryctolagus cuniculus with 3 samples.

Results

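The SLC25 family is the set of mitochondrial carriers, proteins named SLC25A and a number, and its transcripts were examined in cumulus-oocyte complexes of rabbits, in which somatic cumulus cells enclose an oocyte. Members were the gene rows whose symbol, trimmed of spaces, was SLC25A followed by digits. This gave 49 rows with 39 symbols out of 39681 loci. Of these rows, 39, 1 for each symbol, hold a RefSeq messenger RNA, and 10 are assembled fragments that carry a member's name without one. The 39 are called the members here, and they stand beside 20008 rows of the same kind in the whole gene table.

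Most SLC25 carriers sit in the inner mitochondrial membrane and move nucleotides, inorganic phosphate, cofactors, keto acids and amino acids between the cytosol and the matrix. They share a fold of repeated pairs of membrane helices, and many work as exchangers that trade 1 solute for another. In the cumulus-oocyte complex, oocyte mitochondria burn pyruvate that cumulus cells supply, so the exchange of ADP, ATP and phosphate across this membrane is a central step in the energy supply of the egg.

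The animals were female IRA rabbits, 150 in all and 35 days old at the start, housed for 4 weeks under different concentrations of ammonia in the air. The groups were CG, the control under 3 ppm, LAC at 10 ppm and HAC at 30 ppm, with 1 library for each of the 3. No genotype or further agent is named, and neither is the number of rabbits pooled for each library. The complexes were collected at slaughter from ovaries and frozen, and ribosomal RNA was depleted before sequencing.

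The gene table in the HAC file repeats the LAC table in every cell, so genes were compared only between LAC and CG. The label of that table is in doubt, because its highest FPKM, 39491.82, is the one that the statistics block of the HAC file states, and the valid read numbers of both files are exchanged. Every direction below is that of the library labelled LAC. Estimated counts summed to 68523767 in LAC and 78461882 in CG, and 1 estimated count stands for about 0.5 reads. The 20 oocyte markers found, of 22 listed, were all lower in LAC, with summed levels of 1018 CPM in LAC and 5134 CPM in CG, while 0 of the 13 granulosa and cumulus markers found, of 16 listed, passed the size rule given below, with sums of 13701 CPM in LAC and 14045 CPM in CG. By the same rule, 1.89% of 15009 rows with a RefSeq messenger RNA were higher and 11% lower. None of the oocyte, granulosa and cumulus markers found was at 0 in either library, so both cell types of the label were present. In bulk RNA, fewer cells of a type and less RNA per cell cannot be told apart.

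Levels are CPM, counts relative to library size, scaled by the trimmed mean of M values (TMM). The difference is log2(CPM + 1) in LAC minus that in CG, a scale that understates the change of low genes. A row was called higher or lower when the difference reached 1 in size and 1 of the libraries had 10 counts or more. With 1 library a group there is no replicate check and no test. Fold ranges in parentheses are exact binomial 95% intervals on halved counts, and they cover counting error only, not differences between animals or preparations. A CPM value also grows with transcript length, so levels are compared between libraries and not between genes.

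All 39 members had at least 10 counts in 1 of the libraries. SLC25A51 and SLC25A30 were higher in LAC, and SLC25A31, SLC25A33 and SLC25A26 were lower. These are 2 of 39 higher, where 1.89% of 15009 coding rows were higher, and 3 of 39 lower, where 11% were lower. Over all 29030 loci tested, 4.23% were higher and 8.51% lower. The median difference of the members was 0.0046, against -0.14 over the coding rows. Of the 39 members 29, or 74.4%, lay within 0.5 of 0, against 66.8% of the coding rows. Among rows with a mean of 5 to 400 CPM these shares were closer, at 70% of 30 members and 66.2% of 9672 coding rows. With a 1.5-fold rule instead, 3 members were higher, where 5.94% of coding rows and 14.8% of all loci were, and 4 were lower, where 21.9% of coding rows and 16.6% of all loci were. Members above 0 numbered 20 and members below 0 numbered 19. Summed over the family, the level was 1491 CPM in LAC and 1534 CPM in CG, so the family as a whole took much the same part of either library. The family's rows held 0.148% of all estimated counts in LAC and 0.155% in CG.

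**Figure D1:**
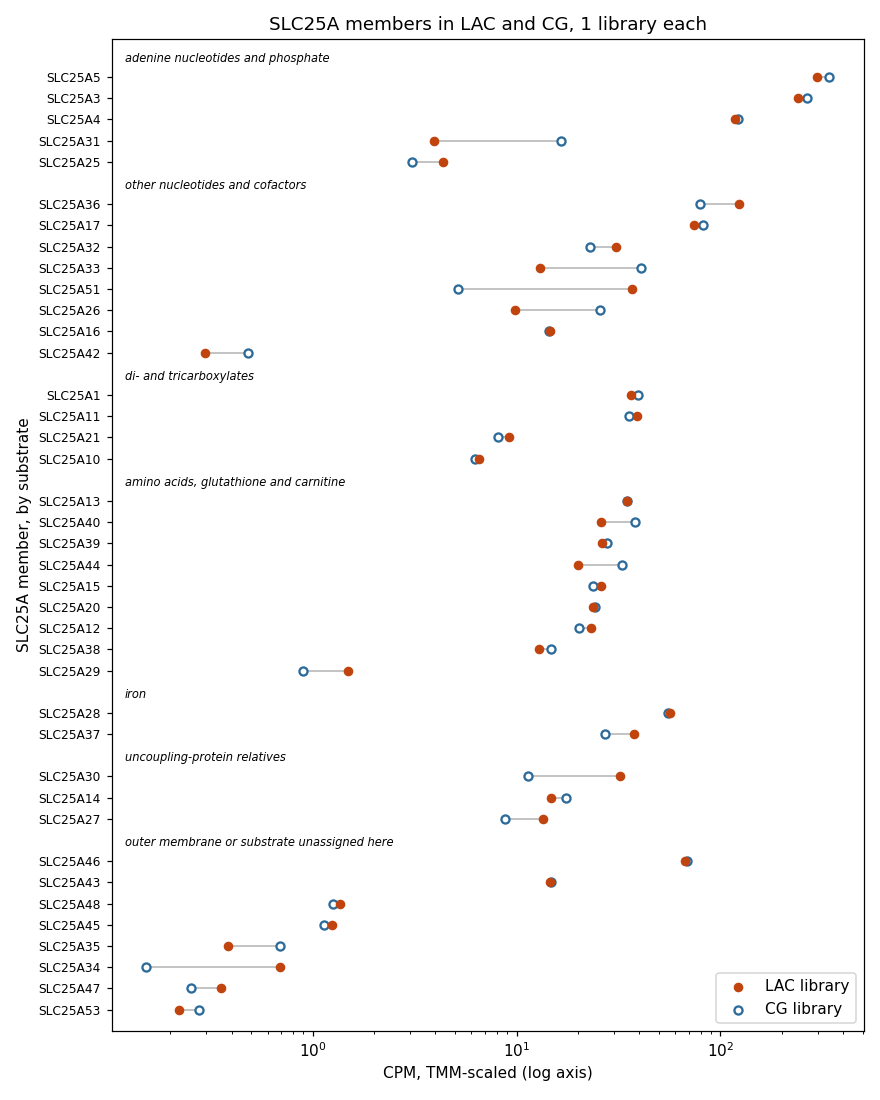
CPM of each of the 39 SLC25A members in the LAC library (filled) and the CG library (open), on a log axis and grouped by transported substrate. Most pairs lie close together, while SLC25A51 (36.9 CPM in LAC and 5.18 CPM in CG) and SLC25A31 (3.92 CPM in LAC and 16.5 CPM in CG) are drawn far apart.

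With TMM factors taken from coding rows alone, every log2 ratio moves up by 0.18, which puts the coding median near 0 and the member median at 0.15. The 5 calls were the same under that scaling and under 10 other settings. For 11 members the sign of the difference depended on the setting, and none of these differed by more than 0.21 under any setting. No direction is read from those 11 members.

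The adenine nucleotide and phosphate carriers supply oxidative phosphorylation: the ADP/ATP translocases bring ADP in and let ATP out, and SLC25A3 brings in phosphate. SLC25A5, the translocase of most growing tissues, had 297 CPM in LAC and 342 CPM in CG, a difference of -0.21. SLC25A3 had 239 CPM in LAC and 265 CPM in CG, a difference of -0.14. SLC25A4, the translocase best known from heart and skeletal muscle, had 118 CPM in LAC and 123 CPM in CG, a difference of -0.06. These 3 rows held 43.8% of the family's counts in LAC and 47.5% in CG, shares that also grow with transcript length, and none reached the size rule. 

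SLC25A31, the translocase known in mice for its role in germ cells, was the exception in this group. It had 3.92 CPM (266 counts) in LAC and 16.5 CPM (1305 counts) in CG, a difference of -1.83 and a level 4.21-fold lower in LAC (3.48 to 5.11). Its locus, MSTRG.15224, lies on the plus strand of OryCun2.0 sequence NC_013683.1 from 103560352 to 103588642. The oocyte markers were lower in the same library, with a median difference of -2.08, and their summed level was 5.04-fold lower in LAC. Single oocyte markers lay between -2.88 and -1.28, a span that takes in the value of SLC25A31. Their part in this difference was not tested. The fifth carrier of the group, SLC25A25, a calcium-regulated exchanger of ATP-magnesium for phosphate, had 4.37 CPM in LAC and 3.07 CPM in CG, 1.43-fold higher in LAC (1.11 to 1.81), and it did not reach the size rule.

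Carriers of other nucleotides and of cofactors held 3 of the 5 calls among 8 members, 1 higher and 2 lower. Among coding rows 1.89% were higher and 11% lower, and a group of 8 is too small to read a pattern by substrate. SLC25A51 brings NAD into mitochondria. It had 36.9 CPM (2508 counts) in LAC and 5.18 CPM (410 counts) in CG, a difference of 2.62 and a level 7.13-fold higher in LAC (6.15 to 8.31). On the CPM scale with a pseudocount of 1 this was the largest difference of the family in either direction. The locus, MSTRG.144, lies on the plus strand of sequence NC_013669.1 from 16141328 to 16156226.

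SLC25A33 and SLC25A36 both carry pyrimidine nucleotides into mitochondria, and their values went different ways. SLC25A33 had 13.1 CPM (888 counts) in LAC and 40.7 CPM (3223 counts) in CG, a difference of -1.57 and a level 3.11-fold lower in LAC (2.80 to 3.47). SLC25A36 had 124 CPM (8403 counts) in LAC and 79.6 CPM (6305 counts) in CG, a difference of 0.63 that stays under the size rule, with a fold of 1.55 (1.48 to 1.63). The locus of SLC25A33, MSTRG.13155, lies on the minus strand of sequence NC_013681.1 from 140618856 to 140655224.

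SLC25A26 imports S-adenosylmethionine, the methyl donor for mitochondrial RNA and protein. It had 9.79 CPM (665 counts) in LAC and 25.7 CPM (2036 counts) in CG, a difference of -1.31 and a level 2.63-fold lower in LAC (2.32 to 2.99). The locus, MSTRG.8850, lies on the plus strand of sequence NC_013677.1 from 33422709 to 33581469. The differences of SLC25A33 and SLC25A26 stand beside the lower oocyte markers given above, and the part of those markers in them was not tested either.

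The other cofactor carriers differed less. SLC25A17, the peroxisomal carrier of coenzyme A and other cofactors, had 74.6 CPM in LAC and 82.2 CPM in CG, a difference of -0.14. SLC25A32, tied to folate and flavin supply of mitochondria, had 30.9 CPM in LAC and 22.9 CPM in CG, 1.34-fold higher in LAC (1.23 to 1.47). SLC25A16, linked to mitochondrial coenzyme A, had 14.5 CPM in both libraries. SLC25A42, a coenzyme A carrier, rested on 20 counts in LAC and 38 counts in CG, and its fold interval of 0.255 to 1.39 includes no change.

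The uncoupling-protein relatives are carriers similar in sequence to the brown fat protein UCP1, and 3 of them had rows. SLC25A30, first described in kidney, had 32.3 CPM (2191 counts) in LAC and 11.3 CPM (898 counts) in CG, a difference of 1.43 and a level 2.84-fold higher in LAC (2.55 to 3.18). Its locus, MSTRG.8060, lies on the minus strand of sequence NC_013676.1 from 49696305 to 49722684. SLC25A27, known mainly from brain, had 13.5 CPM (918 counts) in LAC and 8.73 CPM (691 counts) in CG, a difference of 0.58 and a fold of 1.55 (1.34 to 1.78). SLC25A14, also known from brain, had 14.8 CPM in LAC and 17.5 CPM in CG, a difference of -0.23. The group thus held 1 call among 3 members, where 1.89% of coding rows were higher. UCP1 itself had 11 counts in LAC and 0 counts in CG, and UCP3 had 10 counts in LAC and 0 counts in CG. UCP2, a more widely expressed relative, had 26.7 CPM in LAC and 18.97 CPM in CG, a difference of 0.47.

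**Figure D2:**
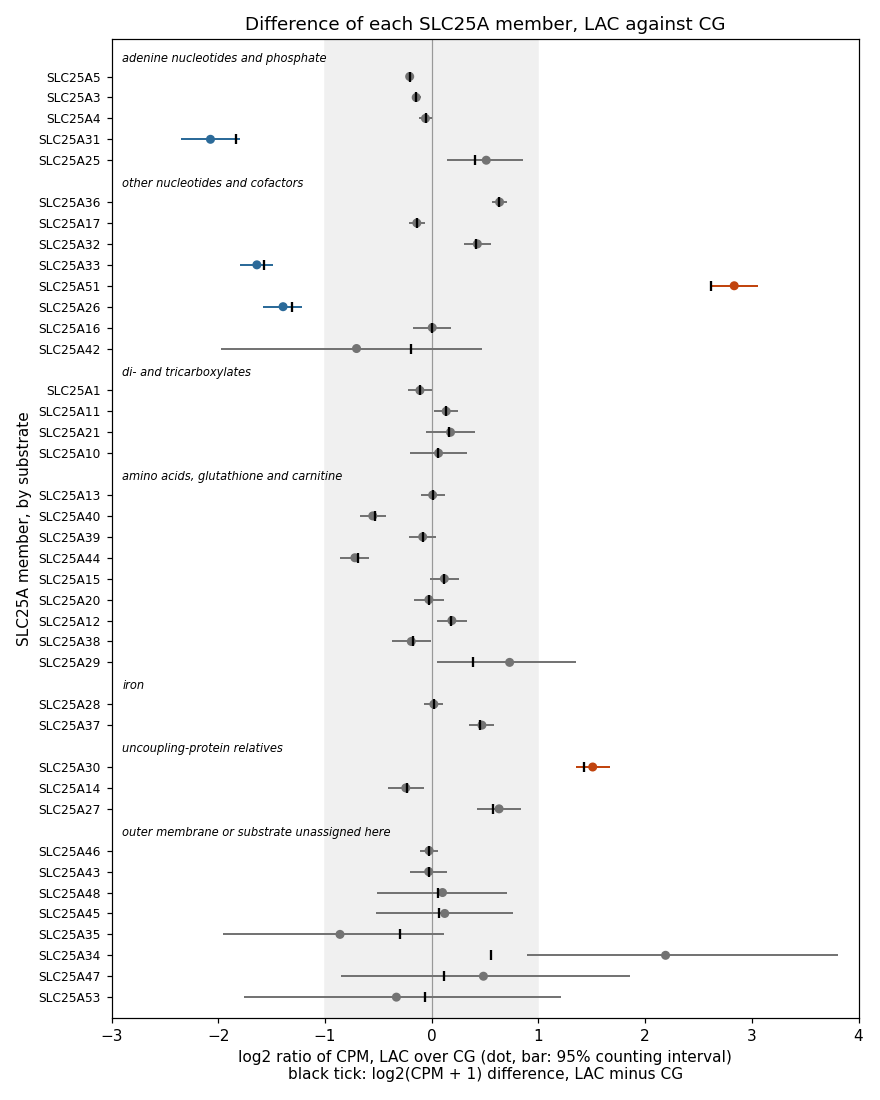
Log2 ratio of CPM, LAC over CG, for each of the 39 members (dot) with its 95% counting interval (bar), and the log2(CPM + 1) difference that the size rule uses (black tick); the grey band spans differences under 1 in size. The members called higher are orange and those called lower are blue, and the widest intervals belong to members with few counts, such as SLC25A34.

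The 4 carriers of di- and tricarboxylates showed no call and the narrowest spread of any group with more than 2 members, between -0.11 and 0.16. With 1.89% of coding rows higher and 11% lower, few calls would be met among 4 genes in any case. SLC25A1, which exports citrate for cytosolic acetyl-CoA, had 36.4 CPM in LAC and 39.3 CPM in CG, a difference of -0.11. SLC25A11, the oxoglutarate carrier of the malate-aspartate shuttle, had 38.95 CPM in LAC and 35.5 CPM in CG, a difference of 0.13. SLC25A10, the dicarboxylate carrier, had 6.51 CPM in LAC and 6.23 CPM in CG. SLC25A21, the oxodicarboxylate carrier, had 9.20 CPM in LAC and 8.15 CPM in CG.

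Among the 9 carriers of amino acids, glutathione and carnitine, 0 reached the size rule. Since 1.89% of coding rows were higher and 11% lower, few calls would be met among 9 genes in any case. SLC25A44, which brings branched-chain amino acids into mitochondria, came nearest, with 19.95 CPM (1355 counts) in LAC and 32.9 CPM (2602 counts) in CG, a difference of -0.69 and a level 1.65-fold lower in LAC (1.499 to 1.81). The 2 glutathione importers differed in value: SLC25A40 had 26.1 CPM in LAC and 38.2 CPM in CG, 1.47-fold lower in LAC (1.35 to 1.60), and SLC25A39 had 26.3 CPM in LAC and 27.9 CPM in CG, a difference of -0.08. The aspartate-glutamate carriers of the malate-aspartate shuttle were nearly level, with SLC25A13 at 34.9 CPM in LAC and 34.7 CPM in CG and SLC25A12 at 23.1 CPM in LAC and 20.3 CPM in CG. SLC25A15, which exchanges ornithine for citrulline in the urea cycle, the main route of ammonia disposal in liver, had 25.9 CPM in LAC and 23.8 CPM in CG, a difference of 0.11. SLC25A20, which exchanges acylcarnitine for carnitine in fatty acid oxidation, had 23.7 CPM in LAC and 24.2 CPM in CG. SLC25A38, a glycine carrier needed for haem synthesis, had 12.9 CPM in LAC and 14.7 CPM in CG. SLC25A29, a carrier of basic amino acids, rested on 101 counts in LAC and 71 counts in CG, with a fold of 1.66 (1.03 to 2.56).

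The 2 iron carriers, the mitoferrins, feed iron to haem and iron-sulphur cluster synthesis. SLC25A37, the mitoferrin of developing red cells, had 37.6 CPM in LAC and 27.2 CPM in CG, 1.39-fold higher in LAC (1.28 to 1.503). SLC25A28, the mitoferrin of other tissues, had 56.3 CPM in LAC and 55.5 CPM in CG, a difference of 0.02. Neither reached the size rule.

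The last 8 members act at the outer membrane or were given no substrate here. SLC25A46, an outer membrane protein of mitochondrial fusion and shape, had 67.2 CPM in LAC and 68.3 CPM in CG, a difference of -0.02. SLC25A43 had 14.5 CPM in LAC and 14.8 CPM in CG. It overlaps LOC100353812 on the opposite strand, a locus that was itself lower in LAC, with 21.8 CPM in LAC and 46.98 CPM in CG. Whether the deposited values keep strand is uncertain, so reads of overlapping loci may have been shared. The other 6 had 100 counts or fewer in each library. SLC25A34 is the one of them whose interval lies away from no change: it had 47 counts (0.692 CPM) in LAC and 12 counts (0.152 CPM) in CG, a fold of 4.57 (1.86 to 13.9) and a difference of 0.56. SLC25A35, SLC25A45, SLC25A47, SLC25A48 and SLC25A53 had between 15 and 100 counts in a library.

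The members just inside the size rule were SLC25A26 at -1.31, SLC25A30 at 1.43 and SLC25A33 at -1.57, and those just outside it were SLC25A44 at -0.69, SLC25A36 at 0.63 and SLC25A27 at 0.58. No member lay between 0.69 and 1.31 in size. None of the 5 called members overlapped another locus, while 6 members did, 5 of them with a locus on the opposite strand. The share of all rows with an overlap was not computed. LRIG1, on the opposite strand, lies 74 bases from SLC25A26, with 93.0 CPM in LAC and 138 CPM in CG. Whether its reads add to the SLC25A26 row was not tested. Of the 10 coding genes that flank the called members, chosen after the values were seen, 0 passed the size rule. Among all coding rows 1.89% were higher and 11% lower, so few calls would be met among 10 genes in any case. The flanking genes ranged from -0.89 for HSPA4L beside SLC25A31 to 0.30 for SHB beside SLC25A51.

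**Figure D3:**
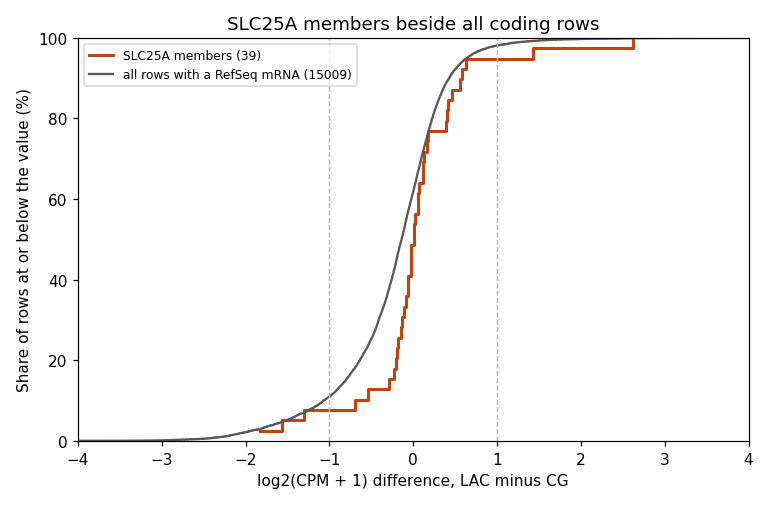
Share of rows at or below each log2(CPM + 1) difference, LAC minus CG, for the 39 SLC25A members and for 15009 coding rows; dashed lines mark the size rule. The member curve crosses the middle at 0.0046 and the curve of coding rows at -0.14.

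The substrate list named 53 SLC25A symbols, and 14 of them had no row of that name. Some carrier-family proteins had rows under other names, namely UCP1, UCP2, UCP3, MTCH1 and MTCH2, and these are not among the 39 members. By gene number, LOC100356877 is SLC25A18, a glutamate carrier, with 88 counts in LAC and 46 counts in CG. A row that joins LOC100344835 and SLC25A24, an ATP-magnesium carrier, had 71.2 CPM in LAC and 82.7 CPM in CG. The ADP/ATP translocases also have near copies in the genome: 13 LOC rows described in the file as ADP/ATP translocase 2 summed to 9163 counts in LAC and 12562 counts in CG, or 45.5% of the counts of SLC25A5 in LAC and 46.4% in CG. The authors' counting could divide reads between such copies, so the level of SLC25A5 is uncertain. With the copies added to SLC25A5, the log2 ratio was -0.22. Most of the copies' sum came from LOC100342972, with 6699 counts in LAC and 10437 counts in CG, a difference of -0.41. The other copies went both ways, as with LOC103345449 at 0.92 and LOC100356326 at -0.33, so the pooled value does not describe each copy. LOC100349768, described as ADP/ATP translocase 1, had 42.7 CPM in LAC and 18.6 CPM in CG, a difference of 1.16, and its reads may likewise be shared with SLC25A4.

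Genes that carriers work with were described by lists. Of 87 genes found in 8 lists of partner genes, 85 had enough counts, 1 was higher and 2 were lower, with a median of -0.13. These are 1.18% higher, where 1.89% of coding rows were, and 2.35% lower, where 11% of coding rows were. All 3 calls depended on the settings. That of the shuttle list (MDH2) was lost with TMM from coding rows, and that of the list with SFXN2 with a pseudocount of 5 CPM. That of the NAD list (NMNAT2) was lost with a pseudocount of 5 CPM and with the deposited FPKM. Other settings added calls under the same size rule. The import list had 1 with median-of-ratios factors, with a pseudocount of 0.1 CPM and with the deposited FPKM. The shuttle list had 2 with the deposited FPKM. With a pseudocount of 0.1 CPM the list of carrier-family proteins under other names had 2 and the ornithine list 1. SFXN2, a sideroflexin of the inner membrane, had 15.1 CPM in LAC and 6.78 CPM in CG, a difference of 1.05. MDH2, the mitochondrial malate dehydrogenase, had 50.2 CPM in LAC and 109 CPM in CG, a difference of -1.10. NMNAT2, which makes NAD in the cytosol, had 1.38 CPM in LAC and 6.08 CPM in CG, a difference of -1.57.

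By list, the 9 genes that import carriers into the inner membrane had a median of -0.17, with TOMM20 at -0.04 and TOMM70, the receptor for carrier precursors, at -0.17. The carrier-family proteins under other names had a median of 0.22 over 5 genes, with the related outer membrane proteins MTCH1 at 0.58 and MTCH2 at -0.47. That median is the value of UCP1, which rests on 11 counts in LAC and 0 counts in CG. It was 0.47 with a filter of at least 100 counts and 0.046 with a pseudocount of 5 CPM. Other transport across the membranes had a median of -0.08 over 17 genes, with the outer membrane channels VDAC1 at -0.29 and VDAC2 at -0.11. The malate-aspartate and citrate shuttles had a median of -0.31 over 11 genes, which was -0.14 with TMM from coding rows, and 9 of the 11 were below 0, as were 9285 of the 15009 coding rows. With TMM from coding rows the medians of the import, other transport, carnitine and ornithine lists were above 0, between 0.0064 and 0.076. Citrate synthase CS had 273 CPM in LAC and 417 CPM in CG, a difference of -0.61, and MDH1 had 193 CPM in LAC and 340 CPM in CG, a difference of -0.81. The carriers of the same shuttles, SLC25A1, SLC25A11, SLC25A12 and SLC25A13, lay between -0.11 and 0.18.

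The remaining lists held no further call with TMM over all loci and a pseudocount of 1 CPM. The 9 genes of NAD synthesis and use had a median of -0.19, beside 2.62 for the NAD carrier SLC25A51. That median is the value of NMNAT3, which rests on 27 counts in LAC and 47 counts in CG. It was -0.30 with a filter of at least 100 counts and -0.05 with a pseudocount of 5 CPM. The transhydrogenase NNT was at 0.08 and the mitochondrial NAD kinase NADK2 at -0.39. Carnitine and fatty acid oxidation had a median of -0.10 over 9 genes, with HADHA, a trifunctional protein subunit, at -0.09 and ACADVL, which starts oxidation of very long chains, at -0.10. The ornithine, glycine, folate and iron partners had a median of -0.14, with ornithine aminotransferase OAT at -0.34 and the iron-sulphur scaffold ISCU at 0.03. The ATP synthase genes had a median of 0.02 over 11 genes, which was 0.19 with TMM from coding rows. Of these genes, the catalytic-core subunits ATP5A1 and ATP5B were at -0.22 and 0.09.

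**Figure D4:**
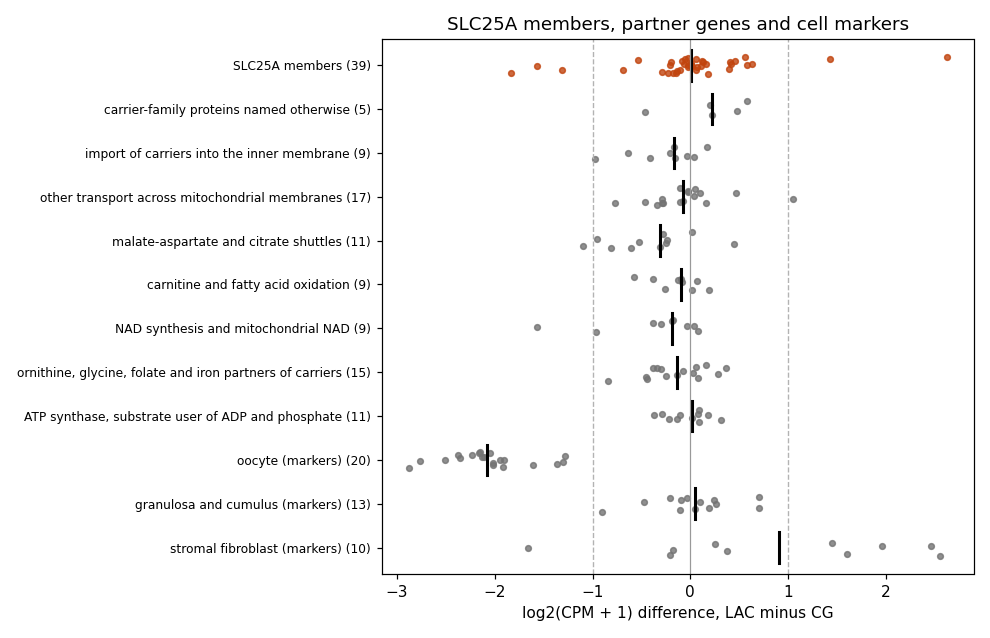
Log2(CPM + 1) difference, LAC minus CG, of each gene (point) and the median (bar) for the SLC25A members, the 8 lists of partner genes and 3 marker lists; dashed lines mark the size rule, and the number of genes is in parentheses. The oocyte markers lie between -2.88 and -1.28, while the median of the SLC25A members is 0.0046.

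Markers of other cells were measured in the same libraries, where 1.89% of coding rows were higher and 11% lower. Of 10 stromal fibroblast markers, 5 were higher and 1 lower, with sums of 156 CPM in LAC and 59.3 CPM in CG and none at 0. The 8 endothelial markers summed to 9.06 CPM in LAC and 50.1 CPM in CG, 1 was lower, and CDH5 and ERG were at 0 in CG. TEK, the 1 that was lower, gave 4.23 CPM of the sum in LAC and 46.7 CPM in CG, and the other 7 summed to 4.83 CPM in LAC and 3.46 CPM in CG. The 8 macrophage markers found, of 10 listed, summed to 30.1 CPM in LAC and 56.6 CPM in CG, with 2 higher, 1 lower and none at 0. MSR1, the 1 that was lower, gave 8.20 CPM in LAC and 47.3 CPM in CG, and the other 7 were all above 0 in difference and summed to 21.9 CPM in LAC and 9.36 CPM in CG. The 4 markers found of carrier-rich muscle and brown fat summed to 1.05 CPM in LAC and 3.09 CPM in CG, with ACTA1 and CIDEA at 0 in both and UCP1 at 0 in CG. The part of these cell types in the called members was not tested. Rows without a RefSeq messenger RNA held 34.2% of counts in LAC and 24.6% in CG, and spliced reads were 16.23% in the LAC file and 22.01% in the CG file.

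Long non-coding transcripts were deposited for all 3 libraries, as FPKM, and 10 of them lay at SLC25A genes, 9 by the name they carry and 1 by overlap. FPKM are fragments per kilobase of transcript relative to library depth, here used as the authors gave them, and no HAC value exists here for the coding rows. The doubt about which library is LAC and which is HAC holds for these columns too, because the LAC columns of both tables come from 1 library, so values below follow the labels as deposited. MSTRG.17319.2, at the coenzyme A linked SLC25A16, stood at 8.44 FPKM in CG, at 3.80 FPKM in LAC and at 6.30 FPKM in HAC. MSTRG.16882.1, in an intron of SLC25A21 by its class code, had 0.68 FPKM in CG, against 2.24 FPKM in LAC and 1.88 FPKM in HAC. MSTRG.16879.1, also within SLC25A21, had 0.59 FPKM in CG, against 1.65 FPKM in LAC and 1.46 FPKM in HAC. Its locus held 29 counts in LAC and 12 counts in CG, and the fold interval of 0.982 to 8.64 includes no change. Both of these SLC25A21 transcripts had their lowest FPKM in CG, but the counts of MSTRG.16879.1 are too few to read a direction from. The difference of LAC minus CG on the log2(FPKM + 1) scale was 0.95 for MSTRG.16882.1 and 0.74 for MSTRG.16879.1.

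The remaining transcripts at SLC25A21 had other patterns. MSTRG.16881.1 had 2.51 FPKM in CG, against 1.88 FPKM in LAC and 1.76 FPKM in HAC. Its locus held 32 counts in LAC and 47 counts in CG, and the fold interval of 0.386 to 1.53 includes no change. MSTRG.16880.1 was listed at 0 in CG, with 0.04 FPKM in LAC and 1.44 FPKM in HAC. At SLC25A48, MSTRG.3372.3 was listed at 0 in CG and in LAC, with 1.61 FPKM in HAC. The other transcripts at this gene were also highest in HAC: MSTRG.3372.2 had 0.90 FPKM in CG, against 1.13 FPKM in LAC and 2.17 FPKM in HAC, and MSTRG.3374.1 had 1.87 FPKM in CG, against 2.47 FPKM in LAC and 3.91 FPKM in HAC. At SLC25A27, MSTRG.10879.1 had 1.14 FPKM in CG, against 2.21 FPKM in LAC and 1.17 FPKM in HAC. MSTRG.8582.1, named for ARIH2 and overlapping SLC25A20, had 1.28 FPKM in CG, against 2.36 FPKM in LAC and 1.24 FPKM in HAC. With median-of-ratios factors over this table, the LAC minus CG difference of MSTRG.3372.2 was -0.06 and that of MSTRG.3374.1 was -0.03, so no order of LAC and CG is read at SLC25A48. None of the 10 lies at a member called between LAC and CG.

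**Figure D5:**
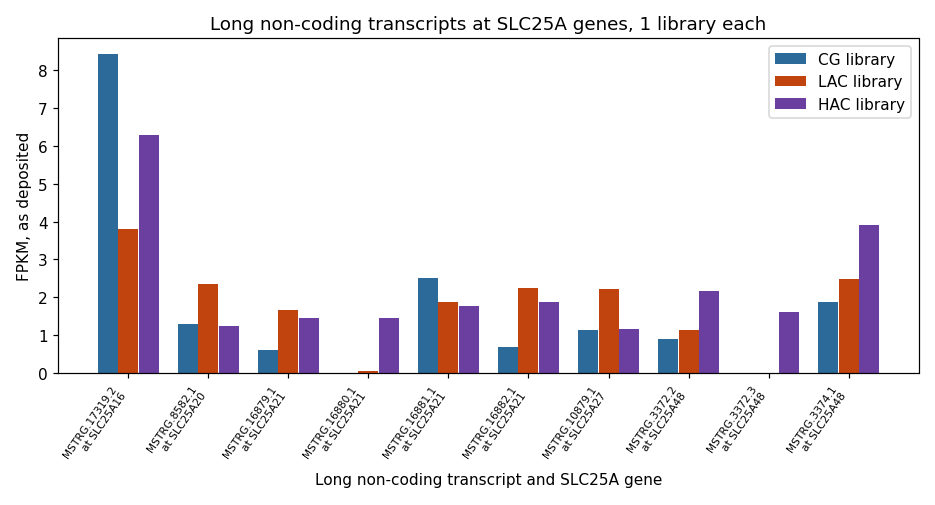
Deposited FPKM of the 10 long non-coding transcripts at SLC25A genes in the CG, LAC and HAC libraries, 1 library each, so the bars carry no error. MSTRG.17319.2 at SLC25A16 is highest in CG (8.44 FPKM), and the 3 transcripts at SLC25A48 are highest in HAC.

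The assembled fragments repeat members' names and were kept out of the count of 39. Of the 10, 9 had at least 10 counts and 0 were called. Among all 14021 tested rows without a RefSeq messenger RNA, 944 were higher and 817 lower, so 0 calls among 9 fragments says little about them. At SLC25A48 the coding row had 92 counts in LAC and 100 counts in CG, while the fragment MSTRG.3373, on the opposite strand, had 5507 counts in LAC and 7220 counts in CG, and MSTRG.3374 had 1402 counts in LAC and 1563 counts in CG. The fragment of SLC25A27, MSTRG.10879, had 7.58 CPM in LAC and 3.74 CPM in CG, a difference of 0.86 beside 0.58 for the coding row. The fragment of SLC25A40, MSTRG.9695, had 6.45 CPM in LAC and 10.0 CPM in CG, a difference of -0.56 beside -0.54 for the coding row.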

How the data were processed

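RNA of cumulus-oocyte complexes was sequenced in 1 library for each of CG, LAC and HAC. The tools fastp and HISAT2 and the build OryCun2.0 are named in the submitters' processing notes; assembly and counting steps are not given there. Per the file headers, the authors deposited an estimated count and an FPKM for each gene row, and a coverage signal and an FPKM for each of 15335 long non-coding transcripts. Coverage times length divided by 75 gave the count within 5% at 97.2% of 8638 loci in LAC and 96.3% of 8651 loci in CG. The HAC coverage gave the LAC count at 4.12% of 8795 loci, so the LAC columns of both tables come from 1 library. The 2 per-sample gene columns of the HAC file were not used, because they repeat LAC.

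LAC and CG rows were joined by gene ID, and counts were scaled with TMM computed from its formula (30% of log ratios and 5% of levels trimmed; factors 0.9910 in LAC and 1.0091 in CG), with a pseudocount of 1 CPM. The deposited gene FPKM served as an alternative only, since its scale between genes is uncertain. With 1 library a group, no test was made. The calculation was tested on simulated data. Calculations used Python 3.11.15 with SciPy 1.17.1, numpy 2.4.6 and pandas 2.3.3. Names of LOC rows came from the RefSeq table of mOryCun1.1, without its coordinates, and ATP synthase genes and the like were matched by older symbols where the files use them.

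The members, gene lists, markers and settings were chosen with earlier results of these data known. Named genes are all members by substrate, list genes past the size rule, the 2 genes of each list with the highest mean CPM, and long non-coding transcripts of at least 1 FPKM in a library. UCP1, UCP2, UCP3, the named LOC rows, the named assembled fragments and the genes flanking called members fall outside this rule. They were chosen after their values were seen.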

Additional observations from a re-analysis of the deposited data

How the results depend on the processing

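The same 5 members were called under each of 11 other settings of scaling, pseudocount, count filter, size rule, deposited FPKM and member choice. A pseudocount of 0.1 CPM added SLC25A34 at 1.65, and a 1.5-fold rule added SLC25A36 and SLC25A44. The settings restricted to members of at least 5 CPM and extended to assembled rows were chosen after seeing the data. SLC25A51 ranged from 1.71, with deposited FPKM, to 2.81, and SLC25A31 from -2.05 to -1.27. With TMM from coding rows, 396 coding rows were higher and 1340 lower, against 283 and 1653, and 47.4% of all calls over all loci were higher, against 33.2%. A pseudocount of 0.1 CPM gave 943 higher and 2740 lower coding rows, and a pseudocount of 5 CPM gave 112 and 909. Of the long non-coding transcripts, MSTRG.17319.2 reached -1.34 in LAC with median-of-ratios factors, while MSTRG.10879.1 was at 0.30, against 0.58 as deposited. With a pseudocount of 0.1 CPM the NAD list had a median of -0.39. Counts limit SLC25A34, SLC25A35, SLC25A42, SLC25A47 and SLC25A53, each with under 60 counts in a library. No paired analysis was possible because each group has 1 library.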
